A study of Rattus norvegicus with 27 samples.

Results

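MicroRNA loci were examined in the messenger RNA of the cerebellar interpositus nucleus (IP), a deep cerebellar output nucleus, of Long-Evans rats. The members are all rows of the count table named Mir and a digit, or Mirlet7, that were selected on 50 or more counts summed over the 27 animals. This rule kept 81 of 453 microRNA loci in a table of 17321 genes. Just inside the limit were Mir324 and Mir1949 with 51 counts each and Mir412 with 53, and just outside it were Mir212 and Mir24-2 with 46 each and Mir7b with 45. No count was recorded in any animal for 170 of the 453 loci. The limit does not use sex or treatment, and Mir124-1 and Mir384 were singled out with earlier results of these data known.

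Punches of the IP were taken on postnatal day 70 from 4 groups, which were 5 females and 7 males reared normally (no treatment, NT) and 7 females and 8 males reared with limited bedding (LB), little nesting material for dam and litter, from postnatal day 2 to 9. Groups carry no transgene and share strain, age and tissue. Animals are numbered within each group in the order of their records, and the numbers pair nothing. Titles of the samples that are alike but for the last digit form sets that each lie within 1 group, and what the sets stand for is not given in the sources used here. Differences between sets within a group were taken into account in a fit with the set as a random block. That animals were separate was taken from their labels, and p-values measure the spread between them.

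A microRNA is transcribed as a long primary transcript, often by RNA polymerase II and with a poly-A tail. Drosha and DGCR8 cut a hairpin out of it in the nucleus, Dicer trims the hairpin to a short duplex, and an Argonaute protein carries 1 strand to its targets, which it recognizes mainly through the seed. A library of poly-A RNA does not hold the short mature microRNA. Reads on a microRNA row here are reads that touch the annotated hairpin, which was 64 to 141 bases long. They can come from the primary transcript, or from an unspliced host intron or a host exon. Whether reads of opposite-strand genes were counted too is not known, since the strand setting is not given. Mir762 shares 75 of 75 bases with exons of Bcl7c on the opposite strand, and Mir6318 99 of 109 with exons of Elmo3. Reads on these rows say nothing of the level of the mature microRNA.

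Mature sequences were taken from RefSeq (GRCr8), where 77 of the 81 members had an entry and 75 a mature sequence. Mir124-1, Mir124-2, Mir3072 and Mir6318 had none by name. The sequences of the loci that passed the test in a sex comparison are shown first because the results below turn on them, from 5′ to 3′ with the seed, bases 2 to 8, in capitals. For Mirlet7f-1 the entry by name holds miR-3596d and no let-7f, and miR-3596d is shown. Its hairpin has 97 bases where the row counted here has 89, and a locus named Mirlet7f1 lies on the opposite strand. The reverse complement of miR-3596d holds GAGGUAG, the seed of let-7. The sequence shown is thus antisense to let-7 and may not be that of the strand counted, which was not tested.

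miR-384-5p: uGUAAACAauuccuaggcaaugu
miR-384-3p: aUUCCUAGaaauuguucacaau
miR-409a-5p: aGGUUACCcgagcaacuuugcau
miR-409a-3p: aAUGUUGCucggugaacccc
miR-541-5p: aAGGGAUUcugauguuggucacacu
miR-541-3p: aGUGGCGAacacagaauccauac
miR-374-5p: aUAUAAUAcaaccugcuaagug
miR-374-3p: cUUAGCACguuguauuauuauu
miR-138-5p: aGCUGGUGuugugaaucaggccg
miR-3546: aUAACCCGggccaaaagcucac
miR-6315: uCUGGACAggacaggcccugagc
miR-3596d: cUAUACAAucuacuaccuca

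A seed was shared by 2 or more members in 6 cases, which took in 14 members, with Mirlet7f-1 counted by miR-3596d. The largest set was the let-7 family, with the seed GAGGUAG in Mirlet7b, Mirlet7c2, Mirlet7d, Mirlet7e, Mirlet7g and Mirlet7i, and Mir9-1, Mir9-2 and Mir9-3 encode the same mature pair. The 5p arm of Mir384 has the seed of the miR-30 family, and its first 8 bases are those of miR-30c-5p. These are shown to compare the seeds.

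let-7b-5p: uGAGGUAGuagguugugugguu
let-7d-5p: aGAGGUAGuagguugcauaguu
let-7g-5p: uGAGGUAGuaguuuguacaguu
miR-9a-5p: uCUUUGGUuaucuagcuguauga
miR-30c-5p: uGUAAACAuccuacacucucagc

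The counts were few. The 81 members together held 37267 counts, from 782 to 2093 in an animal (median 1374), against total counts of 11836684 to 24169170 (median 16034036), which is 0.00471 to 0.0149% of a library. A count of 3 corresponded to 0.124 to 0.253 counts-per-million (CPM), below which a level was not measurable, and such limits cover counting error only. Mir3064 and Mir770 held 27.3% of the counts of the members and the 10 highest loci 54.9%, and the median member had 172 counts over all animals. Counts were present in all 27 animals for 40 members. The Y-linked gene Eif2s3y had 516 or more counts in each male and at most 3 in each female. The transcript LOC100911498 had at least 662.9 CPM in NT females, 4.37 to 919 CPM in LB females and at most 7.13 CPM in males, with the lowest LB female being animal 6 and the highest male LB male 3. Results are also given without both animals where a call changed.

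Summed over the 81 members, the level was 100.1 ± 8.17 CPM in NT females, 79.3 ± 32.2 in NT males, 90.8 ± 25.3 in LB females and 72.99 ± 16.8 in LB males. Marker genes of tissue make-up also differed between the sexes in the same punches. Mean scores of marker genes, in log2 units centred over all animals, were 0.474 ± 0.045 (SD, n = 5) in NT females and -0.43 ± 0.506 (n = 7) in NT males for 12 of 12 granule cell markers. They were -0.736 ± 0.096 and 0.962 ± 1.38 for 9 of 10 deep nucleus markers (Lhx9 was below the count limit). NT male 4 had a deep nucleus score of -1.19, which lies below that of each NT female, and NT male 7 had 3.04. Microglial markers (10 of 10) scored -0.372 ± 0.121 and 0.241 ± 0.31. In LB females and males the granule cell scores were 0.155 ± 0.296 (n = 7) and -0.056 ± 0.335 (n = 8), and the deep nucleus scores -0.658 ± 0.135 and 0.194 ± 0.972. Meningeal markers (8 of 10) did not overlap between the sexes in LB, with -1.061 to -0.27 in females and 0.033 to 0.649 in males, and their part in the LB sex differences was not tested. In bulk tissue fewer cells of a type and less RNA per cell cannot be told apart.

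By position in the rn6 annotation of the table, 54 members were intergenic, 22 intronic and 5 touched an exon of a gene on the same strand. A usable host gene was found for 25 of the 27 in genes. The other 2 were Mir3102 and Mir9-2, whose listed hosts, Olr226 and Cetn3, bridge annotated copies far apart. A same-strand gene lay within 50 kb of 33 of the intergenic loci, and 26 members lay within 10 kb of another member.

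The highest locus was Mir3064, at chr10:94982051-94982117 on the minus strand, in Ddx5, an RNA helicase of the Drosha complex, where it shares 1 base with exon 13 of 14. Its level was 17.3 ± 1.41 CPM in NT females (SD, n = 5), 13.1 ± 7.57 in NT males (n = 7), 14.9 ± 7.91 in LB females (n = 7) and 11.4 ± 5.81 in LB males (n = 8). The groups overlapped, and the widest range was in LB females, from 1.40 CPM in animal 2 to 27.9 CPM in animal 6. Per kilobase of annotated length, Mir3064 had 206 CPM and the exons of Ddx5 490 CPM. Its hairpin is shown with the mature 3p arm in capitals, as the locus with most reads.

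Mir3064 hairpin: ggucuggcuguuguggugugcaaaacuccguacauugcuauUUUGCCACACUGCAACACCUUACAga

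Mir770 was next, at chr6:133682965-133683040 on the plus strand in intron 8 of RGD1566401, the rat Meg3 gene, a maternally expressed imprinted non-coding RNA. It had 11.3 ± 1.59 CPM in NT females, 10.04 ± 6.34 in NT males, 9.41 ± 4.77 in LB females and 7.34 ± 3.61 in LB males. NT male 4 was highest at 21.95 CPM and LB female 2 lowest at 2.37. Here the intronic locus was above the exons of its host, at 122 against 103 CPM per kilobase of annotated length. Reads that only touch the short hairpin raise its value, and no correction was made for this.

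Mir568, 18803 bases downstream of Zbtb20, had 5.53 ± 1.43 CPM in NT females, 4.88 ± 2.19 in NT males, 4.97 ± 1.86 in LB females and 4.31 ± 1.54 in LB males. Mir27b lies with Mir23b and Mir24-1 downstream of Npepo (now Aopep), and had 3.10 ± 0.619, 3.01 ± 1.65, 3.92 ± 1.88 and 4.11 ± 1.502 CPM in the same order. Mir2985, which shares 29 bases with exon 13 of Gria2, an AMPA receptor subunit, had 3.91 ± 0.601, 3.18 ± 1.75, 3.58 ± 1.91 and 2.10 ± 1.09 CPM. Mirlet7b, next to Mirlet7c2 on chromosome 7, had 2.92 ± 1.06, 2.39 ± 1.76, 2.88 ± 0.999 and 3.31 ± 1.52 CPM. For these 6 most abundant loci the groups overlapped and no comparison passed the test in edgeR. Where a hairpin shares bases with an exon, reads of the host could fall on either row, and how the counting treated them is not given in the sources used here.

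**Figure D1:**
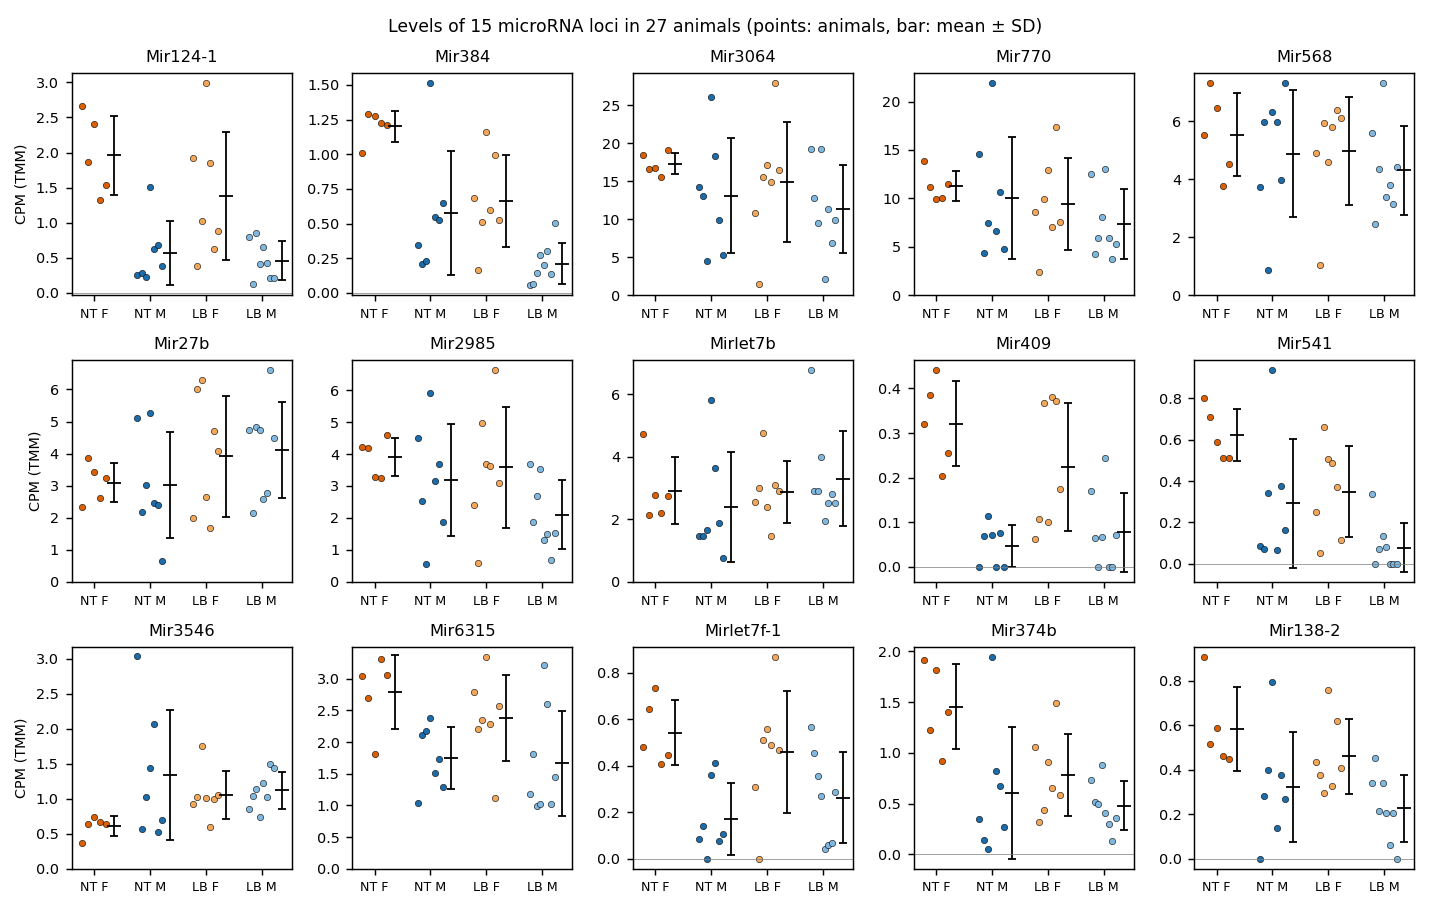
Level in counts-per-million (CPM, TMM normalized, linear axes) of the 15 loci named in the text in each of the 27 animals, with points for animals and bars for group mean ± SD (NT F, n = 5; NT M, n = 7; LB F, n = 7; LB M, n = 8). NT male 4 has 1.51 CPM of both Mir124-1 and Mir384, above each other NT male.

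Sex was compared first in normally reared rats. Mir124-1 and Mir409 were lower and Mir3546 higher in NT males than in NT females, 3 of 81 members, while 15.3% of all 13022 genes tested passed the same test. Of all genes, 513 were called lower and 1482 higher. The median standard error over the members was 0.56 on the log2 scale. Values were lower in males for 63 of 81 members, with a median log2 fold change of -0.41, beside a median of 0.06 over all genes. At an unadjusted p below 0.05 were 13 members (16%) and 4233 genes in all (32.5%). The count of members was 1 without NT female 1 and 9 without NT male 4. For fits without 1 animal, here and below, the share over all genes is not given. With title sets as a random block, 0 members and 2 genes in all passed, compared with 4 members and 1157 genes in limma-voom without the block. With the deep nucleus score less the granule cell score as a covariate, 38 of 81 were lower, the median was 0.10, and no member and 3 genes in all passed. The part of tissue make-up in the sex difference was not tested beyond this.

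Mir124-1 lies at chr15:47964298-47964382 on the plus strand, with no gene of the table on its strand within 50 kb. It encodes miR-124, an abundant microRNA of neurons, which represses genes of non-neuronal cells. NT females had 1.33, 1.53, 1.87, 2.40 and 2.66 CPM, and NT males 0.228, 0.260, 0.281, 0.377, 0.618, 0.677 and 1.51 CPM. Only NT male 4 reached the range of the females. In LB females it spread from 0.376 CPM in animal 2 to 2.99 in animal 4 (median 1.03, n = 7), and in LB males from 0.130 to 0.853 (median 0.414, n = 8). By mean the order was NT females (1.96 CPM), LB females (1.38), NT males (0.565) and LB males (0.460), and the range of LB females overlapped those of the other groups. The log2 fold change of NT males over NT females was -1.79 (SE 0.484, adjusted p = 0.0192, edgeR). In LB rats it was -1.56 (SE 0.441) and did not pass (adjusted p = 0.103), and the difference between the sex effects in NT and LB was 0.23 (SE 0.667, adjusted p = 0.9999, edgeR). Over all animals males were lower by -1.67 on the log2 scale (SE 0.327, adjusted p = 0.00161). With the tissue covariate the NT difference was -1.10 with an adjusted p of 0.662, and with sample title sets as a random block in limma -1.96 with 0.0681. Leaving out NT female 1 gave an adjusted p of 0.0541. The second copy, Mir124-2 on chromosome 2, had a median of 2 or fewer counts in each group and 56 counts in all, too few to compare.

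Mir384 lies at chrX:76301763-76301845 on the minus strand, with no gene other than microRNA loci on its strand within 50 kb in the table. It is known from brain. NT females were tightly grouped at 1.01, 1.21, 1.22, 1.27 and 1.29 CPM. NT males had 0.211, 0.228, 0.347, 0.527, 0.549, 0.647 and 1.51 CPM, so that NT male 4 alone lay above the females and the others all below. LB females ranged from 0.161 to 1.16 CPM (median 0.597) and LB males from 0.0565 to 0.506 (median 0.173, 1 to 7 counts). LB males had the lowest mean, and LB females overlapped both NT groups. Over all animals males were lower by -1.35 on the log2 scale (SE 0.310, adjusted p = 0.00353, edgeR). The differences within NT (-1.06, SE 0.439, adjusted p = 0.0949) and within LB (-1.64, SE 0.438, adjusted p = 0.0887) did not pass, though the LB difference did in DESeq2 (-1.69, adjusted p = 0.0253) and the NT difference in limma-voom (-1.28, adjusted p = 0.0427) and without NT male 4 (-1.5, adjusted p = 0.0153). Summed counts of 80 in LB females and 27 in LB males give a ratio of 3.31 after library size (95% exact interval 2.11 to 5.32, counting error only). Mir325, the next member on the same strand (chrX:76334271-76334368), showed no such order. Its level was 0.733 ± 0.179, 0.610 ± 0.292, 0.461 ± 0.218 and 0.580 ± 0.237 CPM in the 4 groups, in the order used above, and the sex difference over all animals was 0.03 (SE 0.268).

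Mir409 was detected with 4 to 9 counts in each NT female and 0 to 2 in each NT male, with no overlap. Its log2 fold change was -2.56 (SE 0.687, adjusted p = 0.0188, edgeR). The summed counts, 29 against 5, give a 6.99-fold higher level in NT females (95% exact interval 2.68 to 23.1, counting error only). Each NT male lay below 3 counts, the limit of a measurable level, so that the male level rests on the summed counts. In LB the groups overlapped, with 0.223 ± 0.144 CPM in females and 0.0774 ± 0.0884 in males. There the ratio was 2.42 (26 against 12 counts, 95% exact interval 1.18 to 5.26, counting error only). With the spread between animals, the log2 fold change of -1.28 (SE 0.582) did not pass (adjusted p = 0.261, edgeR). In NT the adjusted p was 0.0681 with title sets as a random block and 0.662 with the tissue covariate.

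Mir3546, 10596 bases downstream of Cmtm5, was the only member called higher in a sex comparison, and in NT alone. It also lies within the span of Myh6 on the opposite strand, outside the exons of that gene, and overlaps Mir208a there. NT females had 0.373, 0.638, 0.643, 0.663 and 0.735 CPM, and NT males 0.527 to 3.03 (median 1.03, n = 7), with overlap. The log2 fold change was 1.11 (SE 0.369, adjusted p = 0.0433). It passed in 5 of 10 settings that kept every animal, the main fit among them. Leaving out any NT female, NT male 1 or NT male 5 raised the adjusted p above the threshold, to at most 0.124 (without NT male 1). Cmtm5, a gene of myelinating cells, was also higher in NT males (0.83, SE 0.260, adjusted p = 0.0333). Oligodendrocyte markers (10 of 10) scored -0.681 ± 0.235 in NT females and 0.466 ± 0.81 in NT males.

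In LB rats 0 of 81 members passed in edgeR, against a background of 0.246% of all genes. At an unadjusted p below 0.05 were 8 members (9.88%), beside 16.8% of all genes. DESeq2 called 2 members (Mir124-1 and Mir384) and 414 of all 13022 genes, and limma-voom 0 members and 34 genes in all. Without LB female 2 edgeR called 5 members. The median member was lower in males (-0.35, 58 of 81 lower), compared with 0.02 over all genes. Both sex comparisons, which share no animals but 1 fit, were negative for 53 members, positive for 13 and of opposite sign for 15. The share of all genes with these signs was not computed, and members that lie near each other are not independent.

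With all animals combined, 8 of 81 members passed, all lower in males, where 28.7% of all genes passed (1368 lower and 2374 higher). Besides Mir124-1, Mir384 and Mir409 (-1.92, SE 0.451, adjusted p = 0.00398) these were Mir541 (-1.53, SE 0.453, adjusted p = 0.0149), Mir6315 (-0.59, SE 0.198, adjusted p = 0.0290), Mirlet7f-1 (-1.23, SE 0.423, adjusted p = 0.0315), Mir374b (-0.98, SE 0.348, adjusted p = 0.0369) and Mir138-2 (-0.91, SE 0.340, adjusted p = 0.0442). None of the 8 passed with the tissue covariate, where all stayed lower in males, from -2.04 for Mir409 to -0.40 for Mir374b. The count was 5 without LB female 4, LB female 6 or NT female 3, 15 without NT male 4 and 17 without LB female 2. Without LB female 6 and LB male 3 together it was 5, where 2939 of 12985 genes passed. Mir138-2 lost its call in 17 and Mir374b in 10 of the 27 fits without 1 animal, and Mir124-1, Mir384, Mir409 and Mir541 in 0.

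Among these loci Mir6315 was the most abundant. It lies 3653 bases from Tm7sf2 and had 2.79 ± 0.587 CPM in NT females, 1.75 ± 0.494 in NT males, 2.38 ± 0.679 in LB females and 1.66 ± 0.834 in LB males, with overlap. Mir374b, in intron 7 of the X-linked non-coding RNA gene Ftx, which lies in the X-inactivation centre, had 1.46 ± 0.414, 0.608 ± 0.651, 0.779 ± 0.403 and 0.480 ± 0.238 CPM. Mir138-2, known in neurons from dendritic spines, had 0.583 ± 0.189, 0.322 ± 0.249, 0.460 ± 0.169 and 0.227 ± 0.150 CPM. Mirlet7f-1 had 0.543 ± 0.140, 0.169 ± 0.155, 0.458 ± 0.263 and 0.263 ± 0.195 CPM, near the level of 3 counts in NT males.

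**Figure D2:**
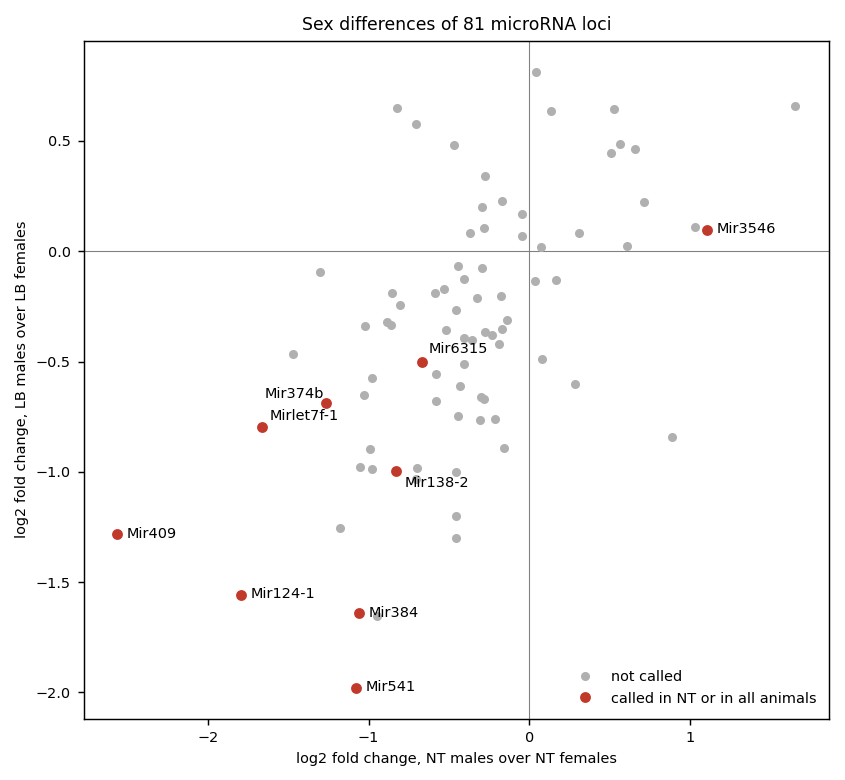
Log2 fold change of males over females in NT rats (x axis) and in LB rats (y axis) for the 81 members, with the 9 loci called in NT or in all animals in red. The part below 0 on both axes holds 53 of 81 members, and the share of all genes there was not computed.

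A run of 13 members on chromosome 6, from base 133682965 to 133898905 of the plus strand, belongs to the imprinted Dlk1-Dio3 region, in which microRNAs are expressed from the maternal chromosome along with Meg3. It held 6875 counts, of which Mir770 had 4153. Summed over the 13, NT females had 18.9 ± 1.78 CPM (16.9 to 20.99), NT males 15.7 ± 9.16 (7.51 to 33.8), LB females 16.5 ± 7.51 (6.08 to 30.2) and LB males 11.9 ± 5.20 (6.48 to 19.9). The groups overlapped, and NT females had the narrowest range. Values were lower in males for 13 of 13 loci in NT (median log2 fold change -0.46, 1 called) and for 12 of 13 in LB (median -0.89, 0 called), the exception being Mir341 at 0.08. The loci are neighbours on 1 strand and are not independent. Within the run, Mir541 showed this most in LB, with 0.0538 to 0.660 CPM in LB females and no count in 4 of 8 LB males (log2 fold change -1.98, SE 0.663, adjusted p = 0.139). RGD1566401, the Meg3 gene upstream, had log2 fold changes of 0.10 (SE 0.285) in NT and -0.18 (SE 0.251) in LB, both smaller than their standard errors. Whether the gene differs from the run was tested for Mir770 alone. The level of Mir770 relative to the gene did not pass in exact permutation tests. It differed by -0.32 in NT (adjusted p = 0.102) and -0.15 in LB (adjusted p = 0.757).

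**Figure D3:**
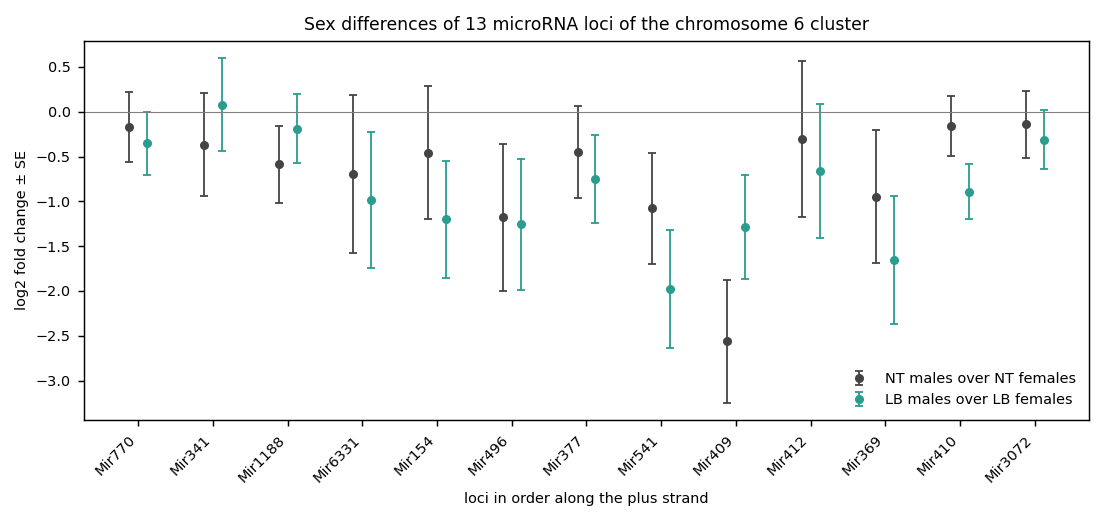
Log2 fold change ± SE (edgeR) of males over females for the 13 loci of the chromosome 6 run, in their order along the plus strand, in NT (dark, 5 against 7 animals) and LB rats (green, 7 against 8 animals). Points lie below 0 for 13 loci in NT and 12 in LB, and Mir409 in NT has the lowest value, -2.56.

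Mir219-2 and Mir2964, chosen here after their values were seen, lie on opposite strands of the same site on chromosome 3 (bases 8407430 to 8407525 and 8407427 to 8407526), and the 96 bases of the former are the exact complement of bases 4 to 99 of the latter. miR-219 is known for driving oligodendrocyte differentiation. Their hairpins are shown with the mature arms in capitals.

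Mir219-2 hairpin: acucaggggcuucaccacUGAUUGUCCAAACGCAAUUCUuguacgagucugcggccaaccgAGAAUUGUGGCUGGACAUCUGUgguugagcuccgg
Mir2964 hairpin: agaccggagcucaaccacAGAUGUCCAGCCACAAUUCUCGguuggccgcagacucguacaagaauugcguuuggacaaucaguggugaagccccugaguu

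They had 102 and 108 counts in all, and different counts in the same animals. Mir219-2 had 0.117 ± 0.0743 CPM in NT females, 0.395 ± 0.307 in NT males, 0.146 ± 0.168 in LB females and 0.235 ± 0.176 in LB males, and Mir2964 had 0.372 ± 0.235, 0.132 ± 0.0938, 0.305 ± 0.229 and 0.217 ± 0.148. The values run in opposite directions, but most lie near the level of 3 counts, and neither sex difference over all animals passed (1.16, SE 0.517, adjusted p = 0.0910, and -0.97, SE 0.424, adjusted p = 0.0852).

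The 6 loci with the seed GAGGUAG and the 3 miR-9 loci did not pass in any comparison. In NT the log2 fold changes of the former were -1.30 for Mirlet7g, -0.86 for Mirlet7c2, -0.86 for Mirlet7d, -0.30 for Mirlet7b, -0.23 for Mirlet7e and 0.53 for Mirlet7i, with standard errors from 0.38 to 0.63. Loci with the same seed thus had values of both signs, and they lie on 4 chromosomes. Mirlet7f-1, a let-7 locus by name, is not among the 6 because its entry held miR-3596d, and it passed over all animals.

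Limited bedding was compared with normal rearing next. In edgeR 0 of 81 members passed in males (background 0%), 0 in females (background 0.00768%) and 0 in all animals (background 0.00768%), and 0 passed in the interaction of sex and treatment (background 0%). At an unadjusted p below 0.05 were 3, 3, 7 and 1 members (3.7, 3.7, 8.64 and 1.23%). The shares over all genes were higher, at 9.67, 7.44, 13.6 and 5.11%. DESeq2 and limma-voom called 0 members in each. Without LB female 4, edgeR called 2 members in the comparison over all animals. Over all animals Mir384 differed by -1.14 in LB on the log2 scale (SE 0.310, adjusted p = 0.239, edgeR), and Mir541 by a like amount (-1.28, SE 0.454, adjusted p = 0.260). In males Mir384 differed by -1.43 (SE 0.447, adjusted p = 0.399). The medians over the members were -0.01, -0.12 and -0.07 in males, females and all animals, beside -0.04, 0.01 and -0.02 over all genes.

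Host genes were then followed. Exons of the host had a higher level per kilobase than the locus in 23 of 25 pairs, by 1.071 times (Mir374b) to 74.9 times (median 5.95). The exceptions were Mir770 and Mir421, with ratios of 0.842 and 0.665. These ratios use annotated lengths. Reads that only touch a hairpin raise its level per kilobase against a long host, which was not corrected. Correlations over the 27 animals used log2(CPM + 0.5) and 34 members with a mean of 10 or more counts, 9 of which had a host. Pearson's r, Spearman's rho and permutation p-values (100000 resamples, two-sided, adjusted over 485 pairs, both for r and for rho) were computed, and r is given within groups except NT females (n = 5). The adjusted p printed is that of r, and that of rho was below 0.05 too for each pair named as passing except Mir186. Mir770 followed RGD1566401 (r = 0.91, rho = 0.91, adjusted p = 0.000606, from the smallest p the resamples can give, 1e-05), at 0.98, 0.87 and 0.97 within NT males, LB females and LB males and 0.88 without the 2 animals with the most extreme host level. Mir3064 followed Ddx5 (r = 0.86, rho = 0.87, adjusted p = 0.000606), and r was 0.75 without the 2 animals farthest from the median of Ddx5. Within the same 3 groups it was 0.78, 0.98 and 0.67.

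Both loci in intron 7 of Ftx followed it. For Mir421 r was 0.75 (rho = 0.80, adjusted p = 0.000606) and for Mir374b 0.67 (rho = 0.68, adjusted p = 0.00303), or 0.84 and 0.63 without 2 animals. Mir2985 and Gria2 had r = 0.65 (rho = 0.55, adjusted p = 0.00569), and Mir186 and Zranb2, which encodes a splicing factor, r = 0.58 (rho = 0.43, adjusted p = 0.0143, and 0.0903 for rho). The last 2 values of r were 0.42 and 0.47 without the 2 animals farthest out. Within groups r for Mir2985 was 0.84, 0.96 and 0.57 in NT males, LB females and LB males, and for Mir186 0.64, 0.86 and 0.73. No pass was reached by Mir7a-1 with Hnrnpk (r = 0.45, rho = 0.35, adjusted p = 0.0826), Mir1249 with RGD1304694 (r = 0.10, rho = 0.03) and Mir628 with Ccpg1 (r = -0.33, rho = -0.39, adjusted p = 0.201). Loci in 1 gene and animals in 1 group share their sources, and group means enter the pooled r.

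The level of a locus relative to its host was compared between groups by exact two-sided permutation tests in 36 comparisons, and 0 passed after adjustment. Mir2985 minus Gria2 came nearest, lower in LB males than in LB females by -0.90 on the log2 scale (-7.48 ± 0.54 against -6.59 ± 0.25, exact p = 0.0014, adjusted p = 0.0503). In NT the same difference was -0.63 (exact p = 0.0215, adjusted p = 0.110). Gria2 itself had log2 fold changes of 0.29 (SE 0.311) and 0.26 (SE 0.274) in NT and LB males over females.

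**Figure D4:**
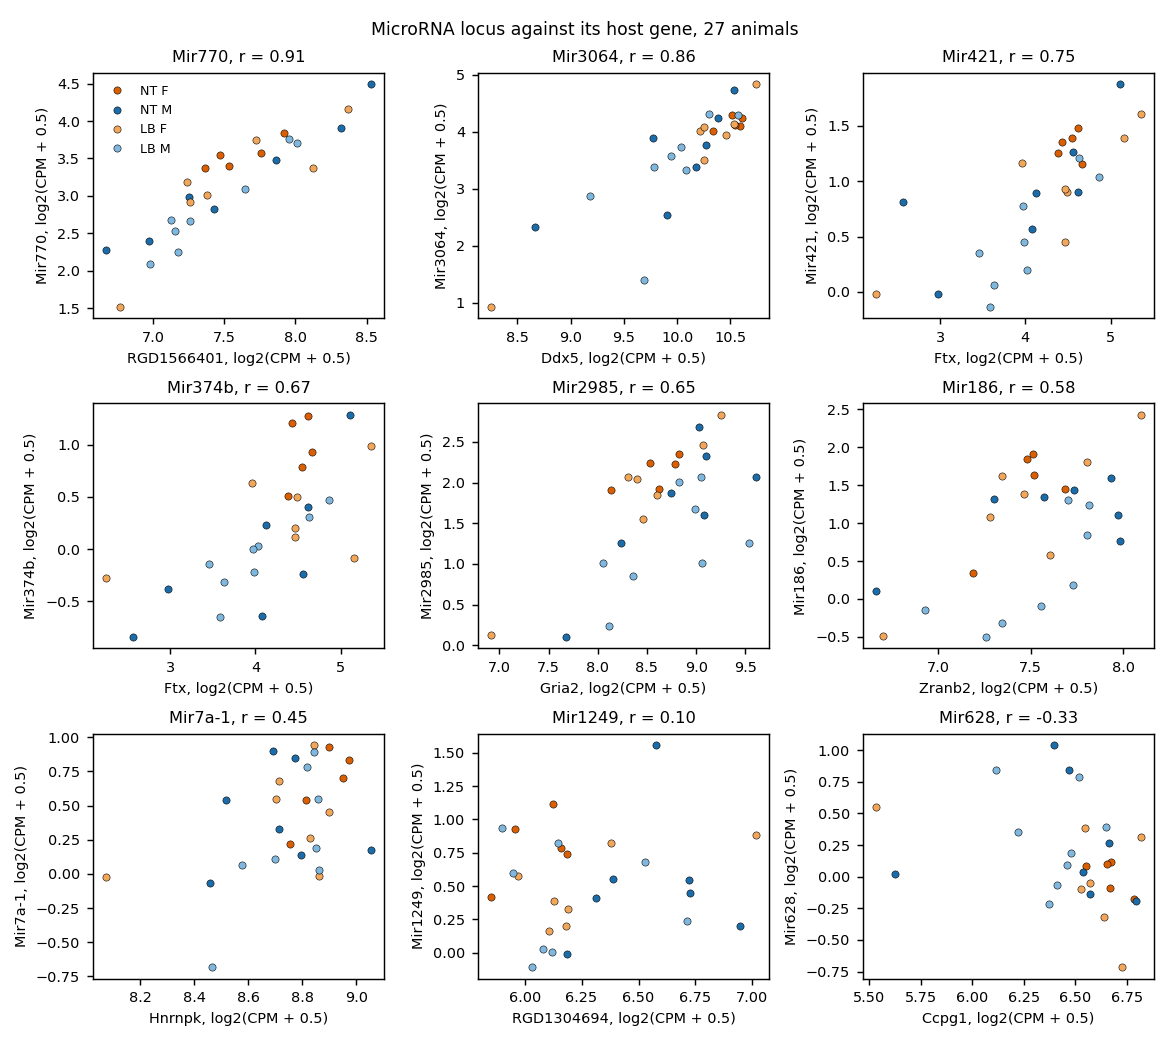
Level of each of 9 loci against that of its host gene in 27 animals, both as log2(CPM + 0.5), coloured by group, with Pearson's r. Points rise together for Mir770 and RGD1566401 (r = 0.91) and form no line for Mir1249 and RGD1304694 (r = 0.10).

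Marker scores of 14 cell types or tissues gave 476 further pairs, of which 80 passed, and 30 of the 34 loci had at least 1 pair that passed. Shares over all genes were computed for single scores and not for these counts. The microglia score (Cx3cr1, Csf1r, P2ry12 and others) was negatively related to 14 loci and positively to 0. Of all genes, 21.6% had an r with this score at or below -0.48, the weakest that passed for any locus and score, and 20.6% one at or above 0.48. The granule cell score was positively related to 9 loci, and the inhibitory interneuron score positively to 9 and negatively to 3, which were Mir21, Mir628 and Mir3546. Among all genes 19.1% were as strongly and positively related to the granule cell score, and 22.6% and 21.5% positively and negatively to the interneuron score, so that a pair that passes is common with these scores. The oligodendrocyte score was negative for 5 loci and positive for Mir3546 alone (r = 0.57, rho = 0.53, adjusted p = 0.0234, r without 2 animals 0.63). Of all genes, 11.4% had an r with this score at or below -0.48 and 12% one at or above 0.48. Shares were lower for some other scores. The oligodendrocyte precursor score was negative for 8 loci (7.32% of all genes) and the astrocyte score for 6 (9.2%). The endothelial score was positive for 3 loci (1.91%), and 0 loci passed the other way with these 3 scores. These scores differed between groups and correlate with each other, so that a separate part of each was not tested.

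Mir124-1 had the most pairs that passed along with Mir24-1, with 8 each. It was positively related to the inhibitory interneuron score (r = 0.76, rho = 0.73, adjusted p = 0.00108), the granule cell score (r = 0.69, rho = 0.75, adjusted p = 0.00261) and the Purkinje cell score (r = 0.62, rho = 0.62, adjusted p = 0.00916). It was negatively related to the microglia score (r = -0.80, rho = -0.79, adjusted p = 0.000606), at -0.65, -0.52 and -0.69 within NT males, LB females and LB males. For granule cells the within-group values were 0.38, 0.76 and 0.65, and for inhibitory interneurons 0.27, 0.83 and 0.35. With the deep nucleus score r was -0.53 (rho = -0.52, adjusted p = 0.0336), at -0.59, 0.60 and -0.13 within the same groups, so that it was of like size in NT males alone and was positive in LB females. Without the 2 animals farthest out, r was -0.80 for microglia, 0.70 for granule cells, 0.74 for inhibitory interneurons, 0.65 for Purkinje cells and -0.50 for the deep nucleus. Among all genes 12.2% had an r of 0.48 or more with the Purkinje cell score. For the deep nucleus score 12.7% had one of -0.48 or less.

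Mir384 was related to the inhibitory interneuron score (r = 0.62, rho = 0.66, adjusted p = 0.0105), the microglia score (r = -0.64, rho = -0.63, adjusted p = 0.00918) and the blood score (r = -0.65, rho = -0.69, adjusted p = 0.00858, 3 of 7 markers measured). Within NT males, LB females and LB males r was 0.28, 0.75 and 0.06 with interneurons, and -0.44, -0.92 and 0.00 with microglia. The relations of Mir384 were thus not seen within LB males, where it had 1 to 7 counts. Without 2 animals r was 0.68, -0.69 and -0.66 for the 3 scores. Among all genes 11.4% had an r of -0.48 or less with the blood score.

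**Figure D5:**
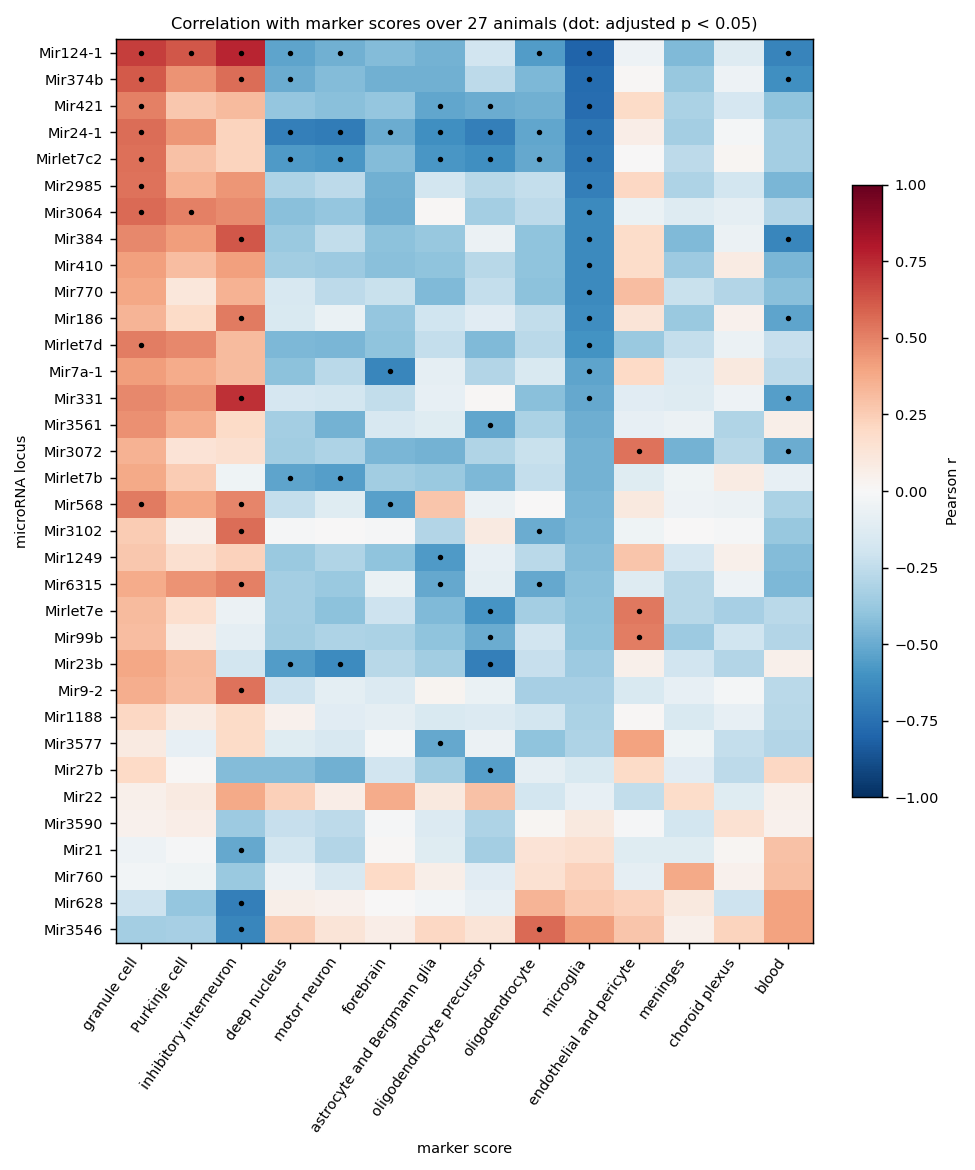
Pearson's r over 27 animals between 34 loci (rows, ordered by r with the microglia score) and 14 marker scores (columns), with a dot where the permutation p adjusted over 485 pairs was below the threshold. The microglia column is negative where it passes (14 loci), and Mir124-1 heads it with r = -0.80.

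Over 11421 genes with a mean of at least 1 CPM, those most like Mir124-1 were Gmeb2, Ank1, Hunk and Polr3b (r = 0.87 each) and Syt2 (r = 0.86). Syt2 encodes a synaptotagmin of synaptic vesicles and Ank1 an ankyrin. After group means were removed, r was 0.66 for Syt2 and 0.70 for Ank1. The genes most like Mir384 were Casc3 (r = 0.88), a subunit of the exon junction complex, Fgd6 and the chloride transporter Clcn5 (r = 0.86 each), and Ago2 and Snx30 (r = 0.85 each). With group means removed r was 0.85 for Clcn5 and 0.70 for Ago2. These are the top ranks of a search and carry no test.

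Among genes of microRNA biogenesis and silencing, 24 of 30 listed were tested. In NT 3 were lower in males and 0 higher, where 15.3% of all genes passed (513 of 13022 lower and 1482 higher). They were Khsrp (-0.59, SE 0.165, adjusted p = 0.0217), Adarb1 (-0.46, SE 0.130, adjusted p = 0.0222), an RNA editing enzyme, and Cnot1 (-0.47, SE 0.148, adjusted p = 0.0342), the scaffold of the deadenylase complex. Over all animals 7 were lower and 0 higher, where 28.7% of all genes passed (1368 of 13022 lower and 2374 higher). With the tissue covariate 8 of 13022 genes passed. Among the 7 were the Argonaute Ago2 (-0.92, SE 0.211, adjusted p = 0.00343) and the hairpin exporter Xpo5 (-0.21, SE 0.0720, adjusted p = 0.0333), with Ddx6, Ddx17 and the 3 genes called in NT as the others. The list medians were -0.26 in NT and -0.25 over all animals, beside 0.06 and 0.04 over all genes. Drosha, which starts processing, did not pass (-0.10, SE 0.0729, adjusted p = 0.301 over all animals). In LB and in each treatment comparison 0 of 24 passed in edgeR.

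Of 13 genes known as partners or targets of miR-124, 12 were tested. In NT 3 were higher in males and 0 lower, where 15.3% of all genes passed (1482 of 13022 higher and 513 lower). The 3 were the glial transcription factor Sox9 (0.53, SE 0.139, adjusted p = 0.0168), the integrin Itgb1 (0.41, SE 0.130, adjusted p = 0.0368) and the phosphatase Ctdspl (0.75, SE 0.181, adjusted p = 0.0125). In LB 0 of 12 passed in edgeR, the list median was -0.05, and the log2 fold changes were 0.21 for Sox9, 0.03 for Itgb1 and 0.25 for Ctdspl. Over all animals 28.7% of all genes passed (2374 higher and 1368 lower). Sox9, Ctdspl and Vim (0.36, SE 0.0952, adjusted p = 0.00759) were higher there, and the list median was -0.01. Rest, the repressor of neuronal genes, did not pass (0.22, SE 0.339, adjusted p = 0.684 in NT), nor did Ptbp1, a splicing regulator (0.03, SE 0.123, adjusted p = 0.885 in NT). Sox9 is also in the astrocyte list, whose score was -0.17 ± 0.034 in NT females and 0.095 ± 0.259 in NT males.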

How the data were processed

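Poly-A RNA of IP punches was sequenced (KAPA mRNA kit). Per the submitters' processing notes, reads were aligned to rn6 with STAR 2.5.2b and counted with featureCounts of Subread 1.5.1, and the authors deposited raw counts per gene, without normalization. Strand and overlap settings are not given in the sources used here.

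From these counts, the 13022 genes with 50 or more counts over the 27 animals were fitted together with the quasi-likelihood test of edgeR 4.0.16 (R 4.3.3, TMM, robust, prior count 0.125), with 4 groups in 1 model and Benjamini-Hochberg adjustment at 0.05. The model was tested on simulated counts. Alternatives were DESeq2 1.42.0, limma-voom (limma 3.58.1), other filters and normalizations, a block for title sets, a tissue covariate, and leaving out each animal. Among 80 pairs of animals within groups 0 had identical counts (lowest chi-square per degree of freedom 8.77).

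Marker scores are means of log2(CPM + 0.5). Hosts are genes whose span holds the locus on the same strand. The text gives in full Mir124-1, Mir384, the 6 loci with most counts, and up to 8 further loci that passed in any comparison, and 5 genes most like Mir124-1 and Mir384. Members and gene lists were chosen with earlier results of these data known.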

Additional observations from a re-analysis of the deposited data

Results flagged for a closer look

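Of 60 sets of animals (15 loci in 4 groups), 11 held an animal whose gap to its nearest neighbour was larger than Dixon's 95% critical value. Chance gives about 5% in independent sets with a normal spread. These sets share animals across loci and some hold few counts, so that an excess over 5% was not tested. NT male 4 was high for Mir124-1 (1.51 CPM, nearest 0.677), Mir384 (1.51 CPM, nearest 0.647), Mir541 (0.936 CPM, nearest 0.376) and Mir374b (1.94 CPM, nearest 0.824). The summed level of the 81 members was also highest in this animal, at 143.5 CPM, where the other 26 animals had 46.6 to 129.8. NT female 1 was low for Mir384 (1.01 CPM, nearest 1.21) and Mir3546 (0.373 CPM, nearest 0.638) and high for Mirlet7b (4.74 CPM, nearest 2.79). LB male 1 was high for Mirlet7b (6.78 CPM, nearest 3.999) and Mir541 (0.339 CPM, nearest 0.136). LB female 2 was low for Mir568 (1.02 CPM, nearest 4.61), and LB female 3 was high for Mir3546 (1.76 CPM, nearest 1.05).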

How the results depend on the processing

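In the sex comparison of NT rats, the number of loci that passed (3) became 1 when only the groups compared were fitted. There 51 members were tested and 1349 of 12530 genes passed. It was 0 with title sets as a random block (2 of 13022 genes) and 0 with the tissue covariate (3 of 13022 genes). Leaving out single animals gave 1 (without NT female 1) to 9 (without NT male 4). In limma-voom the number was 4, where 1157 of 13022 genes passed. Mir384 (-1.28, adjusted p = 0.0427) and Mir374b (-1.85, adjusted p = 0.0239) were among those that passed. In LB rats (0) it was 2 in DESeq2, where 414 of 13022 genes passed, and 0 to 5 (without LB female 2) when animals were left out. Over all animals (8) it was 12 in limma-voom (3189 of 13022 genes) and 4 with the filterByExpr filter (39 members tested, 3546 of 12107 genes). It was 5 with the block (1114 of 13022 genes) and 0 with the covariate (8 of 13022 genes). Without LB female 6 and LB male 3 together it was 5 (2939 of 12985 genes). Leaving out single animals gave 5 (without NT female 3, LB female 4 or LB female 6) to 17 (without LB female 2). The count for LB against NT in all animals ran from 0 to 2 (without LB female 4), and the other treatment counts stayed at 0 in these refits.

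For Mir124-1 in NT the log2 fold change was -1.96 with the block and -1.10 with the covariate, both no longer passing, and -2.25 to -1.65 with animals left out. For Mir384 in LB it was -1.69 in DESeq2, which passed, and -1.93 to -1.45 with animals left out. With the covariate, loci that were lower in NT males became higher, at 0.37 for Mir3064, 0.16 for Mir770, 0.19 for Mir568, 0.47 for Mir27b, 0.28 for Mir2985 and 0.38 for Mirlet7b. None of these passed in either direction. Leaving out animals turned the sign of values near 0, with ranges of -0.31 to 0.0104 for Mir568 and -0.24 to 0.14 for Mir27b in NT, and -0.0613 to 0.22 for Mir27b, -0.0365 to 0.36 for Mirlet7b and -0.0042 to 0.26 for Mir3546 in LB. The cause of these changes was not tested, beyond the smaller number of members tested under 2 of the settings. Of 1310 single-locus values recomputed, 1222 kept direction and side of the threshold, 62 lost and 10 gained a call, and 16 changed sign. No paired analysis was possible because replicate numbers only name the animals in the order of their records.

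Depth is 1 limit, with a median of 172 counts per locus over 27 animals and a median standard error of a log2 fold change in NT of 0.56. The share of depth in that error, and that of the spread between animals, was not tested. Calls also moved with the tissue covariate and with single animals, as given above.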
